A study of Bos taurus with 8 samples.

Results

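The far end of cattle chromosome 18 carries the leukocyte receptor genes together with NLRP and zinc finger genes, and transcript levels along it were followed in 8 tissues by RNA-Seq. Members were all loci of the deposited table that carried an Ensembl transcript identifier and lay wholly at or beyond position 62000000 of chromosome 18 (assembly UMD3.1). This rule found 171 of the 24886 named loci in the table, running from 62017126 to 65998833, and it used position alone. The study made 1 library for each of 8 tissues to relate DNA methylation to expression: whole testes, frontal cortex, intercaruncular uterus, mammary parenchyma (called mammary gland here), abomasum (the glandular stomach), ileum, rumen (a forestomach) and nucleated blood cells. The study took its methylation samples from a Hereford cow and her progeny or other relatives. For the RNA libraries it names a similar tissue collection without giving the animals. The study's list of methylation samples gives adult testes, uterus and blood cells, juvenile mammary gland, cortex, abomasum and ileum, and fetal rumen, whereas the labels of the RNA libraries give no age. Tissue and animal can therefore not be told apart, no replicate check exists and no test between tissues was made.

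Levels are FPKM, fragment numbers corrected for transcript length and for sequencing depth, so that loci of unequal length can be compared. For a transcript of 1000 bases, 4.42 to 11.4 reads made up 1 FPKM in these libraries, whose depth on the scale of the deposited values was recovered as 15625000 reads in rumen, 6082000 in mammary gland and values between these elsewhere. A count of 0 allows up to 3 reads, which on 1000 bases is 0.264 FPKM in rumen, the deepest library, and 0.679 FPKM in mammary gland, the shallowest. These limits cover counting error only. Fewer cells of a type and less RNA per cell cannot be told apart in such bulk tissue.

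Gene symbols could not be paired with the identifiers of the region, because RefSeq's table for assembly ARS-UCD2.0 as used here held no Ensembl identifiers. Each locus is therefore named by its UMD3.1 position, and the tissue labels were not checked against marker genes. As a guide to what the chromosome end holds, the last 171 protein-coding genes of chromosome 18 in that RefSeq table included 36 genes with zinc finger names (ZNF, ZSCAN, ZFP, ZIM, ZBTB, MZF1 and PEG3), 5 KIR genes and 4 NLRP genes. They also included GP6, NCR1, FCAR, LAIR1, OSCAR and TARM1, and 62 genes known by a LOC number only. These names describe the neighbourhood in another assembly and were assigned to no locus here.

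The families named there have different jobs. KIR, LAIR1 and FCAR proteins are immunoglobulin-like receptors found among natural killer cells, myeloid cells and lymphocytes, and NCR1 is an activating receptor of natural killer cells. NLRP proteins include sensors that assemble inflammasomes, while others of the family act in germ cells and the early embryo. Many zinc finger genes encode transcription factors that bind DNA and recruit TRIM28 to silence it, and PEG3 is an imprinted gene expressed from the paternal copy.

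**Figure D1:**
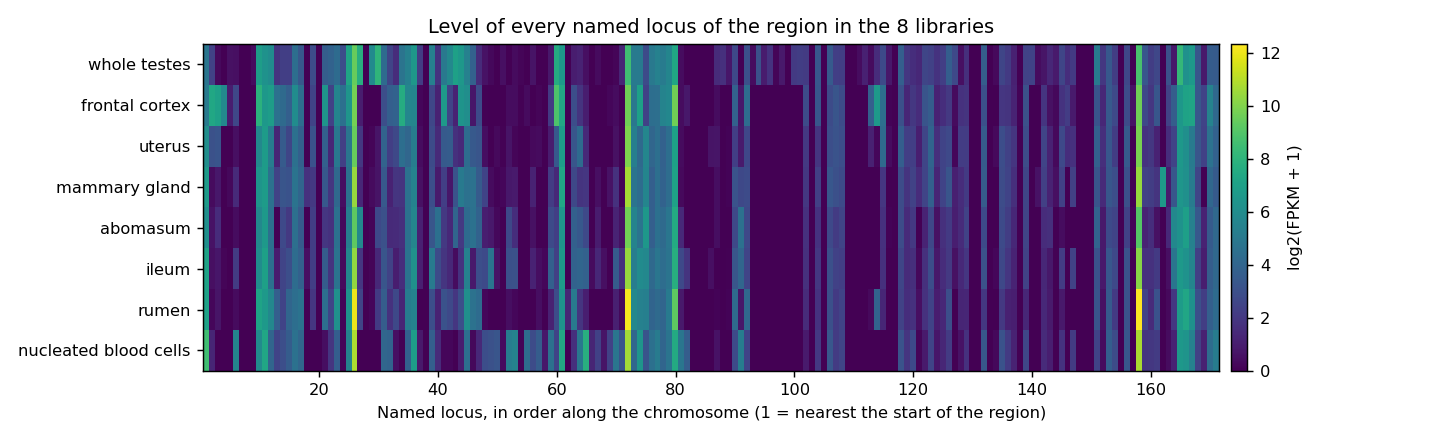
Level of each of the 171 named loci, as log2(FPKM + 1) in colour, in the 8 libraries (rows), with the loci in order along the chromosome (columns). Long dark stretches alternate with blocks that are bright in 1 library, and 3 columns are bright in all 8.

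Loci that reached 1 FPKM were taken as expressed. By this measure 131 of the 171 loci (76.6%) were expressed in at least 1 tissue, where the share over all named loci was 70.3%. Of the 171 loci, 62 (36.3%) were expressed in all 8 tissues, against 35.8% of all named loci. Another 18 loci were expressed in exactly 1 tissue (9.98% over all named loci) and 51 in 2 to 7. The share of broadly expressed loci thus lay close to that of the table.

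The highest level reached by a locus was at least 100 FPKM for 25 loci, 10 to under 100 FPKM for 57, and 1 to under 10 FPKM for 49. The remaining 40 loci stayed below 1 FPKM in every library. How many of all named loci reached 10 or 100 FPKM was not counted. Of all 171 loci of the region, 20 were listed at 0 in all 8 libraries. This is a smaller share than in the table as a whole, which listed 5882 of 24886 named loci so (23.6%). Of the 9 loci whose end minus start was 800 to 1000 bases, 7 were listed at 0 everywhere, as were 75.3% of all named loci of such spans. All 4 loci under 130 bases were listed at 0 too, as were 99.1% of those in the table, so a listed 0 at this length cannot be read as absence of transcript.

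The number of expressed loci varied little between tissues. It was 102 of 171 in whole testes (59.6%), where 58.2% of all named loci were expressed. Ileum had 97 (background 52.9%), uterus 96 (51.8%) and mammary gland 96 (51.2%). Frontal cortex and abomasum had 95 each (51.7% and 51.0%), nucleated blood cells 92 (45.0%) and rumen 89 (48.4%). Rumen thus had the fewest expressed loci of the region, and nucleated blood cells the fewest of the whole table. At a threshold of 5 FPKM the order turned, with 69 loci in cortex and 62 in testes. The shares over all named loci were not counted at this threshold, so the turn cannot be read as particular to the region.

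Tissues differed more in where the highest level fell. Of the 131 expressed loci, whole testes led 34 (26.0%), frontal cortex 32 (24.4%) and nucleated blood cells 28 (21.4%). Over all 17484 expressed named loci these shares were 30.8%, 16.0% and 15.1%. Rumen held the highest level at 14 loci (background 12.1%), uterus at 9 (7.46%), mammary gland at 6 (4.77%), abomasum at 6 (9.16%) and ileum at 2 (4.60%). In the rest of chromosome 18, frontal cortex led at 17.8% of expressed loci and nucleated blood cells at 15.1%. Many leads were small: at 57 of the 131 loci (43.5%; background 43.6%) the FPKM + 1 of the leading tissue was under 1.5 times that of the next. When all libraries were rescaled to the same summed FPKM, the shares became 23.5%, 28.0% and 17.4% for testes, cortex and blood cells in the region and 31.6%, 18.1% and 12.1% over all named loci. Rescaling changed rumen and uterus more: rumen then led 4 loci (3.03%, against 3.69% over all named loci) and uterus 24 (18.2%, against 16.4%).

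**Figure D2:**
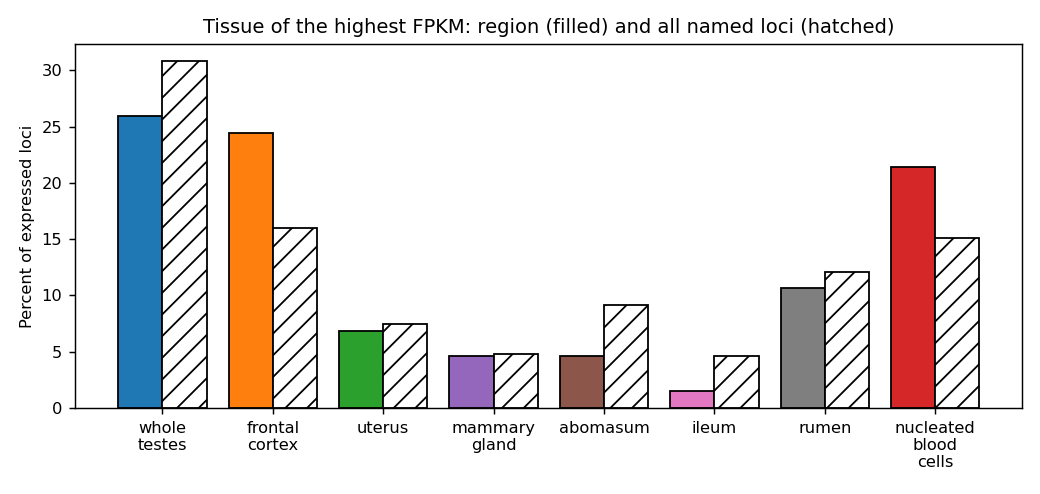
Percent of expressed loci (vertical axis) whose highest FPKM fell in each tissue, for the 131 expressed loci of the region (filled bars) and for all 17484 expressed named loci (hatched bars). Frontal cortex (24.4% against 16.0%) and nucleated blood cells (21.4% against 15.1%) exceed their background, and abomasum (4.58% against 9.16%) lies below it.

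Enrichment in a tissue meant a level of 1 FPKM or more together with an FPKM + 1 that exceeded the next tissue's 5-fold or more. This held for 18 loci (background 12.1%), which is 6 in frontal cortex (background 2.41%), 6 in nucleated blood cells (0.932%), 5 in whole testes (6.61%) and 1 in mammary gland (0.217%). Uterus (0.402%), abomasum (0.386%), ileum (0.410%) and rumen (0.763%) had 0 such loci. Testis-enriched loci, the commonest kind in the table, made up 2.92% of the region, and blood-enriched loci 3.51%. The order of these counts depended on the settings, since a pseudocount of 0.1 gave 10 testis loci (5.85%, background 8.19%) and 8 blood loci (4.68%, background 1.22%). A fold of 2 gave 17 testis loci (9.94%, background 12.7%) and 14 blood loci (8.19%, background 3.50%). Under both, the testis share lay below its background and the blood share above it. The median tau index, which is 0 where all tissues are equal and 1 where a single tissue has the locus, was 0.425 over the 131 loci and 0.436 over all expressed named loci.

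Most neighbours were led by different tissues. Of 130 pairs of neighbouring expressed loci, 43 (33.1%) had their highest FPKM in the same tissue, against 24.2% of the 17441 pairs in the table and 27.0% on the rest of chromosome 18. Pairs that share a span also share reads and were left out in an alternative: 33 of 110 pairs without overlap (30.0%) were alike, against 26.4% on the rest of the chromosome and 23.5% in the table. Without overlap the shares lie closer together than over all pairs, and no difference between them was tested. After rescaling of the libraries to the same sum the share was 43.5% in the region and 25.1% over all named loci. In total, 11 runs of at least 3 neighbours with the same leading tissue were found. Frontal cortex led 5 of them, whole testes 3, nucleated blood cells 2 and rumen 1. How often such runs occur over all named loci was not counted. In the blood run at 63146659 to 63356116 and the cortex run at 63443998 to 63466177 all loci share 1 span.

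The longest runs were those of nucleated blood cells, with 7 loci each. The first run reached from 62860119 to 63055833. Its levels in blood cells were 6.42 to 45.5 FPKM with a median of 19.4, whereas the median was 1.26 in ileum, 0.752 in mammary gland, 0.485 in abomasum, 0.283 in cortex, 0.244 in uterus, 0.181 in rumen and 0 in testes. All 7 loci were highest in the blood library by the definition of a run. Blood cells led the next tissue at least 2-fold at 6 of them, with ileum next at 5. The run skipped 3 named loci that stayed below 1 FPKM in all tissues.

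Within this run the locus at chr18:62935385-62945850 was the most restricted. Its FPKM was 19.4 in nucleated blood cells and 0.283 in frontal cortex, and it was listed at 0 in the other 6 libraries, a 15.9-fold lead on the scale of FPKM + 1. At chr18:63016438-63021037 the level was 11.3 FPKM in blood cells, 0.366 in ileum, 0.360 in rumen, 0.285 in uterus and 0.132 in cortex, and 0 in testes, mammary gland and abomasum. Both stood in blood cells alone above 1 FPKM.

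Other neighbours were also expressed in ileum and abomasum. The locus at chr18:62910217-62916510 had 45.5 FPKM in blood cells, 7.33 in ileum, 2.09 in abomasum, 0.862 in mammary gland, 0.338 in cortex, 0.285 in testes, 0.181 in rumen and 0.120 in uterus. At chr18:62895244-62900591 the values were 37.3 FPKM in blood cells, 6.97 in ileum, 5.31 in abomasum, 0.752 in mammary gland, 0.559 in uterus, 0.356 in rumen, 0.322 in cortex and 0 in testes. Blood cells, ileum and abomasum were the 3 highest libraries at both, and the remaining libraries were below 1 FPKM.

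The second run lay in a single span of 209457 bases, chr18:63146659-63356116, to which the table assigned 8 named loci. Here 7 loci were expressed and all 7 were highest in nucleated blood cells, at 1.45 to 219 FPKM with a median of 8.23. The medians were 2.24 in ileum and 0.894 in abomasum, and 0.539 or less in the other libraries. Since these loci share the span, and 1 identifier stood at 2 of them, the division of reads among them is uncertain.

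The strongest locus of this span was ENSBTAT00000005286, with 219 FPKM in nucleated blood cells. Its level was 13.4 in ileum, 5.67 in abomasum, 2.83 in mammary gland, 1.71 in uterus, 1.02 in rumen, 0.964 in cortex and 0.417 in testes. Blood cells led ileum 15.3-fold on the scale of FPKM + 1. An entry of the span that named 6 transcripts differed from the rest: it stood at 30.0 FPKM in blood cells, 19.0 in uterus, 15.4 in ileum and 9.45 in abomasum, and at 1.25 to 2.69 in the other 4 libraries, so uterus was next.

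**Figure D3:**
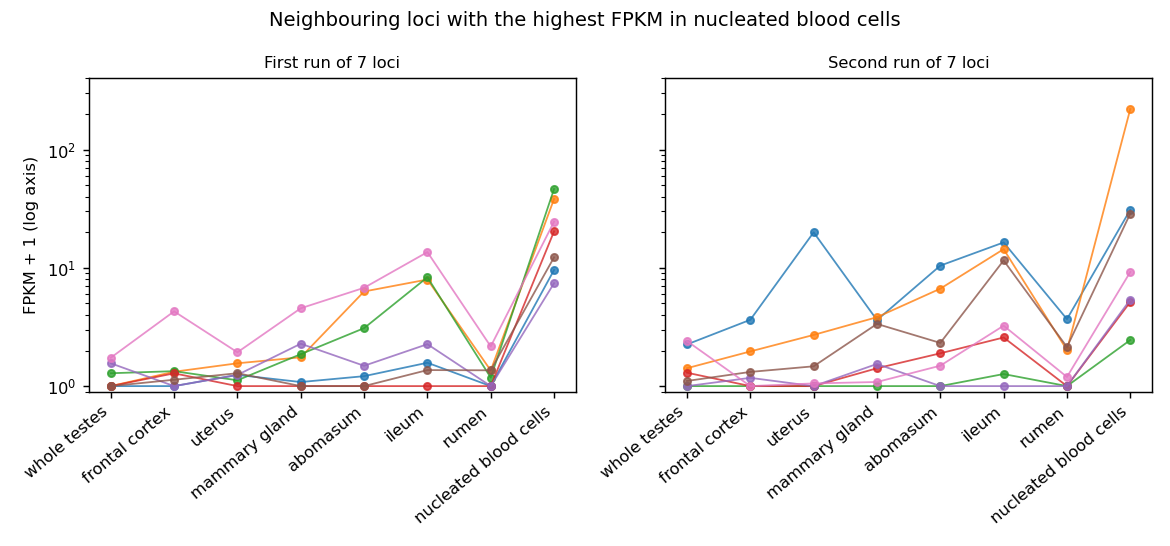
FPKM + 1 (log axis) in the 8 libraries for the loci of both runs led by nucleated blood cells, with each line joining the values of 1 locus. By the definition of a run all 14 loci peak in nucleated blood cells, at 1.45 to 219 FPKM, and ileum is the next library for 10 of them.

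Across the stretch from 62.8 to 63.5 Mb, which was chosen after the values were seen, 18 of 31 expressed loci were highest in nucleated blood cells, and the other 10 blood-led loci of the region lay elsewhere. The 18 loci had a median of 15.4 FPKM in blood cells, 4.15 in ileum, 0.981 in abomasum, 0.646 in mammary gland, 0.300 in cortex, 0.291 in testes, 0.265 in uterus and 0.188 in rumen. Of the 18, 15 were below 1 FPKM in each of testes, cortex and uterus, while 5 were so in ileum, 9 in abomasum, 11 in mammary gland and 13 in rumen. Of the 10 elsewhere, 2 were below 1 FPKM in testes, 1 in cortex and 2 in uterus. Because the loci were picked as highest in blood cells, lower values in other tissues follow in part from the choice. The same shares over all blood-led loci of the table were not counted. Ileum was the next tissue for 13 of these 18 and for 15 of all 28 blood-led loci (53.6%), against 33.6% of blood-led loci in the whole table. The number of blood cells in the ileum sample was not measured, and its part in these values was not tested.

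Not every locus in this stretch followed blood cells. At chr18:62838436-62849280 the order was turned, with 27.0 FPKM in ileum and 7.40 in blood cells, 0.789 in abomasum, 0.276 in mammary gland, 0.187 in testes and 0 in cortex, uterus and rumen. At chr18:63090944-63104304, between the runs, frontal cortex had 472 FPKM and testes 191, and the others 1.66 to 9.74. This locus was 1 of the 5 most abundant of the region, and its highest value was 285 times its lowest.

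Outside the stretch, the leading blood locus was the first of the region, chr18:62017126-62024908. Its FPKM was 372 in nucleated blood cells, 138 in ileum, 135 in rumen, 106 in mammary gland, 70.4 in abomasum, 66.8 in uterus, 33.0 in cortex and 26.5 in testes. Every library thus expressed it, and blood cells led by 2.69-fold. At chr18:62144229-62165477 blood cells stood at 46.9 FPKM, cortex at 5.09, ileum at 3.43 and mammary gland at 1.76, with the other 4 libraries below 1, a 7.86-fold lead on the scale of FPKM + 1.

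Frontal cortex led 2 runs in which most loci were enriched. The first comprised 3 adjacent loci from 62028034 to 62098260, next to the first locus of the region, and all 3 were enriched. ENSBTAT00000009879, at chr18:62078416-62098260, had 55.8 FPKM in cortex and 0.123 in ileum and was listed at 0 in the other 6 libraries. Its lead of 50.6-fold on the scale of FPKM + 1 was the largest of cortex in the region.

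The neighbours of that locus were higher but less restricted. At chr18:62028034-62047353 the level was 161 FPKM in cortex, 7.35 in uterus, 4.29 in testes and 1.40 in blood cells, and 0.150 to 0.538 in the other 4 libraries. At chr18:62052412-62068049 it was 128 FPKM in cortex, 8.15 in uterus and 1.93 in abomasum, 0.233 to 0.717 in testes, mammary gland, ileum and rumen, and 0 in blood cells. Uterus was the next tissue at both, with leads of 19.4-fold and 14.1-fold.

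The last cortex run reached from 64202394 to 64282112 and followed 4 named loci that were listed at 0 outside testes. The locus at chr18:64216860-64229275 stood at 96.8 FPKM in cortex, 14.2 in rumen, 1.96 in testes and 0.178 in uterus, and at 0 in the other 4 libraries. At chr18:64202394-64211372 cortex had 12.5 FPKM, uterus 1.19, testes 0.272 and rumen 0.255, and 0 was listed in the other 4. The third locus of the run, chr18:64267262-64282112, was nearly level between cortex (21.1 FPKM) and uterus (18.5 FPKM), followed by testes (5.94) and by 1.48 to 2.92 in the others except blood cells (0). Rescaling of the libraries moved its highest level to uterus. All 3 loci were at 0 in blood cells.

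One more locus was enriched in cortex, at chr18:62616006-62638443, in the middle of a cortex run from 62607685 to 62653605. It had 197 FPKM in cortex, 26.1 in testes, 21.2 in uterus, 1.42 to 2.64 in mammary gland, abomasum, ileum and rumen, and 0 in blood cells. The other cortex runs, at 62340991 to 62374877 and 63443998 to 63466177, held 0 enriched loci, and cortex led by less than 2-fold at all 6 loci there.

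Whole testes led 3 runs, 2 of them at high levels. In the run from 62554477 to 62587280 the median was 139.7 FPKM in testes, 6.44 in abomasum, 4.03 in rumen, 2.29 in ileum, 1.79 in uterus, 1.09 in mammary gland, 0.486 in cortex and 0 in blood cells. Its locus at chr18:62566706-62573006 had 59.1 FPKM in testes, 0.118 to 0.282 in uterus, mammary gland, abomasum, ileum and rumen, and 0 in cortex and blood cells, so that testes led 46.9-fold on the scale of FPKM + 1. The adjacent locus at chr18:62573124-62574837 reached 266 FPKM in testes, with 5.50 in abomasum, 3.38 in rumen, 1.66 in ileum, 0.631 in uterus, 0.590 in mammary gland and 0 in cortex and blood cells, a 41.1-fold lead. The outer loci of this run were less restricted. At chr18:62554477-62557372 testes had 220.2 FPKM and abomasum 53.4, with 0 to 4.69 in the other 6 libraries. At chr18:62580016-62587280 testes (19.2 FPKM) and blood cells (15.7) were nearly level, and the rest had 6.85 to 14.2.

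The second testis run, from 62709966 to 62735307, was mixed as well. At chr18:62717574-62721350 testes stood at 129 FPKM, abomasum at 15.4 and mammary gland at 7.95, and the rest at 0 to 2.81. The last locus of the run, chr18:62722934-62735307, was almost shared, with 93.4 FPKM in testes, 83.6 in cortex and 32.7 in mammary gland against 0.916 to 7.19 elsewhere.

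The third testis run was of another kind. From 63754417 to 63836659, a stretch picked after its values were seen, 8 of 9 named loci were above 0 in testes and listed at 0 in all other libraries, and the ninth was at 0 in every library. Among all named loci, 3.67% were above 0 in testes and at 0 elsewhere, and in the region 14 loci (8.19%). Levels were low: the 8 loci stood at 0.129 to 7.26 FPKM in testes with a median of 1.71, and 4 reached 1 FPKM. The highest was chr18:63759298-63762589, at 7.26 FPKM in testes, the only enriched locus of the run. For a transcript of 1000 bases the zeros in the other 7 libraries allow 0.264 to 0.679 FPKM, and more for a shorter one. Differences at the lower loci of the stretch, such as those at 0.129 and 0.336 FPKM, were therefore not detectable at this depth in some or all libraries.

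**Figure D4:**
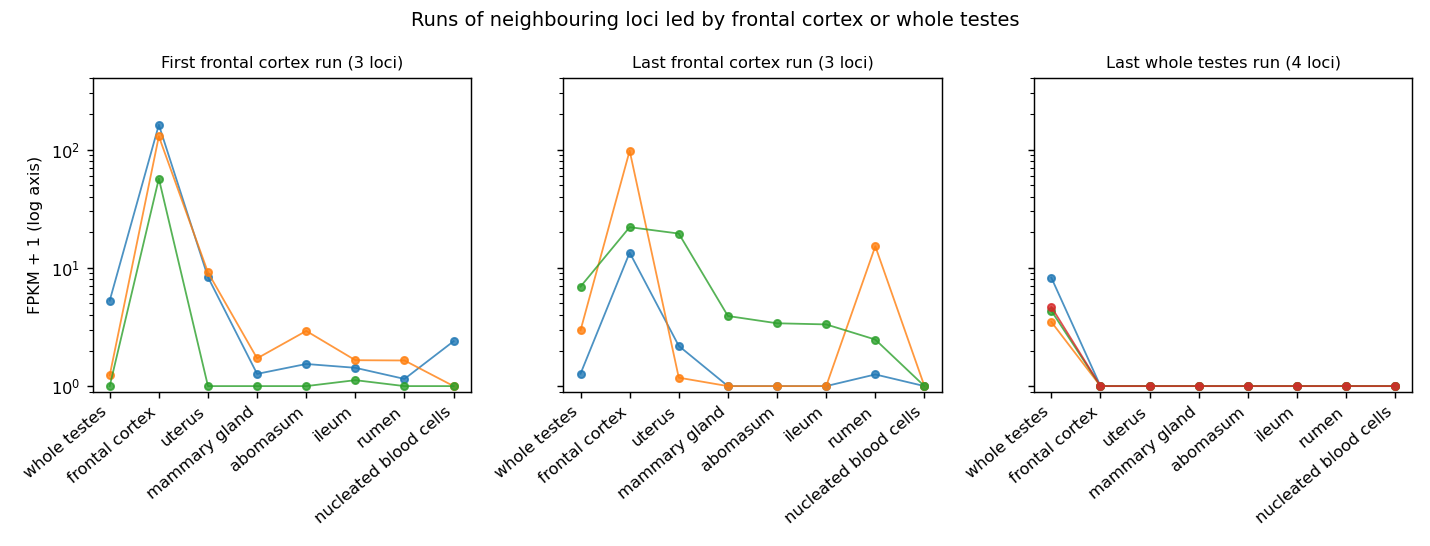
FPKM + 1 (log axis) in the 8 libraries for 3 runs of neighbouring loci, with each line joining the values of 1 locus. The first cortex run peaks at 55.8 to 161 FPKM in frontal cortex, the last cortex run at 12.5 to 96.8 FPKM, and the 4 expressed loci of the last testis run at 2.49 to 7.26 FPKM in whole testes with 0 in all other libraries.

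A single locus was enriched in mammary gland. ENSBTAT00000061969 was listed at 105 FPKM in mammary gland and at 0 in the 7 other libraries. It shares the span chr18:65898595-65902938 with another named locus, which was expressed at 2.64 FPKM in mammary gland and 0.473 to 8.72 FPKM in the others, highest in cortex. The length of its own transcript is not given in the table, so the number of reads behind the value is unknown.

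Rumen held the highest values of the region. Its only run, 3 loci from 62740809 to 62805008, was led by 1.01-fold to 1.34-fold, and rescaling gave each of these loci another leading tissue. The 3 most abundant loci were chr18:65845924-65851516, chr18:63380357-63388728 and chr18:62544421-62551897, which lie far apart. Their FPKM in rumen was 5193, 4663 and 4134. Blood cells had 1743, 1577 and 1810.2, mammary gland 1401, 1649.6 and 1378, and ileum 1119, 1383 and 1290.0. Uterus had 913, 982 and 708, cortex 810.1, 811 and 866, abomasum 538, 831 and 613, and testes 438, 371 and 713.

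All 8 libraries thus expressed the 3 loci strongly, with a rank among all named loci of 49 to 72 in rumen and 93 to 225 in testes. Rumen led the next tissue by 2.98-fold, 2.83-fold and 2.28-fold on the scale of FPKM + 1. After rescaling to the same sum rumen still led, at 2988, 2683 and 2379 FPKM, against at most 1981 in any other library. Together these 3 loci took 85.0% of the summed FPKM of the region in rumen, 63.2 to 72.9% in uterus, mammary gland, ileum and blood cells, 54.3% in abomasum, 36.1% in cortex and 32.8% in testes. The fourth most abundant locus, in the span chr18:63443998-63466177, had 818 FPKM in cortex and 629 in rumen, whereas the other 6 libraries had 129 to 210.4.

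Even loci were found at high and at low levels. The lowest tau index, 0.0846, belonged to a locus in the span chr18:63106558-63118928, with 173 FPKM in blood cells, 170.4 in cortex, 155 in mammary gland, 110.3 in uterus, 105 in ileum, 102 in testes, 88.5 in abomasum and 77.8 in rumen. At chr18:62327591-62340892 (tau 0.0855) the levels ran from 76.9 FPKM in testes to 156 in blood cells. At chr18:65699311-65718488 (tau 0.106) they ran from 5.81 in abomasum to 11.9 in blood cells, a much lower level. A locus in the span chr18:65953874-65963496 (tau 0.114) ranged from 71.0 FPKM in uterus to 157 in rumen, and chr18:63393521-63397497 (tau 0.137) from 16.7 in blood cells to 54.1 in rumen. The highest value was 2.03 to 3.25 times the lowest at these 5 loci, and after rescaling the leading tissue changed at all 5.

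Leading tissues were also counted in windows of 500 kb, to be read against the shares over all named loci of 30.8% for testes, 16.0% for cortex and 15.1% for blood cells. In the first window 9 of 17 expressed loci were led by frontal cortex. In the second, testes led 10 of 30 and blood cells 8, and in the third blood cells led 12 of 24. The fourth window had 24 named loci, of which 12 were expressed and 8 of these led by testes, while 6 loci were at 0 in every library. After rescaling of the libraries, an alternative chosen after seeing the data, these counts were 12 of 18 for cortex in the first window, 10 of 30 for testes and 7 for blood cells in the second, 11 of 23 for blood cells in the third and 9 of 13 for testes in the fourth. In the fifth window cortex led 4 of 6 expressed loci, but 2 after rescaling, when uterus led 3. Uterus also led most loci of the sixth and seventh windows after rescaling (7 of 12 and 6 of 8), where it led 3 and 2 before. Leads there thus depended on the scaling.

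From 64.5 to 65.8 Mb, limits set after the values were seen, most expressed loci were low. There 28 of 39 loci were expressed (70.3% over all named loci) and 16 in all 8 tissues (35.8%). The median tau was 0.340 over the 28. Their highest FPKM ran from 1.94 to 34.0 with a median of 5.17, and 21 of the 28 stayed below 10 FPKM in every library. The leading tissue was ahead by under 1.5-fold at 23 of the 28 loci, against 43.6% of all expressed named loci. Enrichment held for 1 locus (12.1% over all named loci), a testis entry of the span chr18:65278552-65333658 with 4.52 FPKM in testes and 0 in the other libraries. The median level was 4.26 FPKM in mammary gland, 4.05 in uterus, 3.81 in testes, 2.70 in cortex, 2.59 in blood cells, 2.56 in ileum, 2.19 in abomasum and 1.59 in rumen. Higher levels were found beyond 65.8 Mb, since the most abundant locus of the region and the one enriched in mammary gland lie there. The last locus of the region, chr18:65992765-65998833, was expressed everywhere, at 35.8 FPKM in blood cells and 10.2 to 19.2 FPKM in the other libraries.

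**Figure D5:**
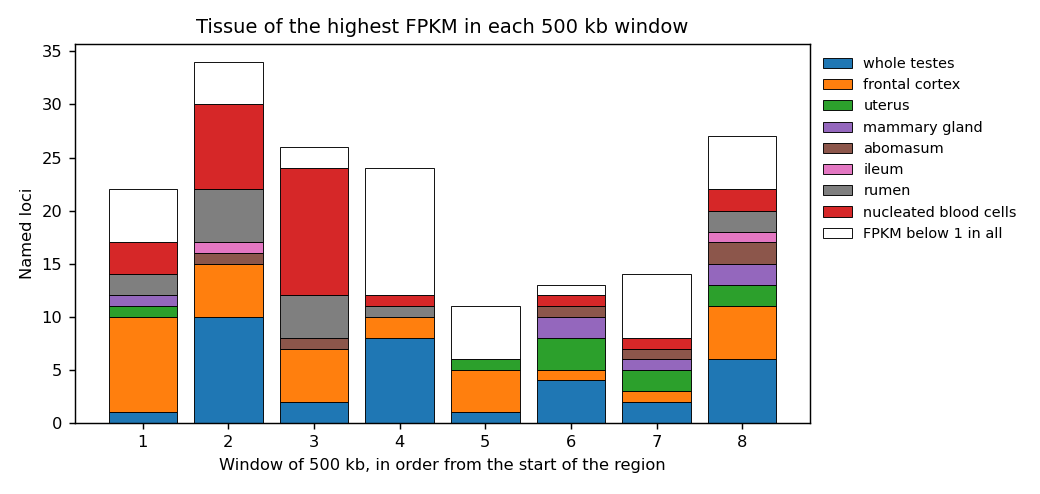
Number of named loci (vertical axis) in each of 8 consecutive windows of 500 kb (horizontal axis), coloured by the tissue of the highest FPKM, with white for loci below 1 FPKM in all tissues. Blood cells lead 12 loci in the third window and 1 or 0 in the fourth to seventh, and testes lead 8 of 12 expressed loci in the fourth, all on the values as deposited.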

How the data were processed

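RNA was extracted with TRIZOL and libraries were made with a TruSeq kit, 1 per tissue. According to the study's methods, the authors filtered single-end reads, aligned them to UMD3.1 with TopHat (version 2.0.13) and ran Cufflinks at default parameters. The deposited values are FPKM from that step of the authors. The authors' columns of fold changes and p-values were not used, and the status column served only to find failed estimates, of which the region had 0.

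Members and gene lists were chosen with earlier results of these data known. The planned lists of symbols and markers could not be applied. Named loci followed a rule: the 3 largest leads per enriched tissue, the 5 highest levels, the 5 lowest tau values, runs of at least 3 neighbours, and the first and last locus. Loci beyond this rule were picked after their values were seen. In the region 22 loci named several identifiers, 7 identifiers stood at more than 1 locus and 48 loci shared 18 spans, so the split of reads between such loci is uncertain.

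Tau and folds used FPKM + 1 and understate differences of low loci. Depth was recovered from unnamed loci with an end minus start of 88 to 130 bases, assuming fragments with mean 200, SD 80 and a lower limit of 87 bases. At the recovered depth 97.7 to 100% of these loci held whole reads within 0.03. The absolute scale depends on that model. Scripts in Python 3.11.15 (numpy 2.4.6, pandas 2.3.3, SciPy 1.17.1) were tested on simulated data. Alternatives covered thresholds, pseudocount, fold, scaling and locus types.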

Additional observations from a re-analysis of the deposited data

Results flagged for a closer look

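The region also holds 70 loci without an identifier, and the counts of named loci do not include them. In 1 library or more, all 70 reached 1 FPKM, 19 of them highest in nucleated blood cells and 19 in whole testes. Over the 11840 expressed loci without an identifier in the table, 9.91% were highest in blood cells and 36.1% in testes. From 62.8 to 63.5 Mb there were 16 such loci, and 14 were highest in nucleated blood cells. These results were noted because they are signal in data outside the main comparisons. For a transcript of 1000 bases, 1 FPKM exceeds the limit that a count of 0 allows (0.264 to 0.679 FPKM), but the limit is higher for shorter ones, and the read numbers behind these loci were not recovered apart from 4 short ones.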

How the results depend on the processing

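A count was taken to hold within 1.5 times its reported value, the median tau within 0.350 to 0.547 (the 95% order-statistic interval of the median) and the share of alike neighbours within 25.6 to 41.5% (95% Wilson interval). No paired analysis was possible because there was only 1 library for a tissue and nothing was tested. Held were 41 of 48 alternative counts of expressed loci, 34 of 40 of highest levels, 91 of 112 of enriched loci, 5 of 6 median tau values and 4 of 5 shares of neighbours. At an FPKM of at least 5 the expressed loci numbered 69 in cortex, which was then the highest, 62 in testes, 60 in blood cells, 60 in uterus, 51 in rumen, 55 in ileum, 56 in mammary gland and 54 in abomasum. No share over all named loci was counted at that threshold. A fold of 2 gave 17 enriched loci in testes, 12 in cortex, 14 in blood cells, 5 in rumen, 2 in mammary gland and 1 each in abomasum and ileum, and a fold of 10 gave 2 in testes, 3 in cortex and 2 in blood cells, both by construction. A pseudocount of 0.1 gave 10 in testes and 1 in rumen, and a median tau of 0.270. With loci without an identifier included, enriched loci were 12 in testes, 10 in blood cells, 5 in abomasum and 3 in rumen, and highest levels 53 in testes, 47 in blood cells and 14 in abomasum. Rescaling multiplied libraries by 0.575 (rumen) to 1.44 (uterus) and moved the highest levels to 24 in uterus, 4 in rumen and 1 in ileum, and the share of alike neighbours to 43.5%. Of 55 loci checked singly, a selection from the region, 9 then had another leading tissue. The number of such changes among all expressed loci of the region was not counted. When 1 other tissue at a time was dropped, enriched loci ran from 6 to 10 in blood cells (10 without ileum), 0 to 1 in abomasum (1 without ileum or without testes), 0 to 1 in ileum (1 without blood cells) and 0 to 1 in rumen (1 without cortex). Unless given, the cause was not tested. Transcript lengths are not in the table, so reads behind single levels are unknown for named loci.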

Other observations

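Among the loci without an identifier, 4 were of 99 to 129 bases, and each was above 0 in a single library. At chr18:62779097-62779226 the abomasum value of 439 FPKM corresponded to 13 reads (95% Poisson interval 6.92 to 22.2). At chr18:64642072-64642181 an abomasum value of 1677 FPKM also stood for 13 reads. At chr18:64701970-64702083 the abomasum value of 921 FPKM stood for 10 reads (4.80 to 18.4), and at chr18:65843074-65843173 the rumen value of 3569 FPKM for 10 reads. The intervals cover counting error only.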
